A study of Mus musculus with 55 samples.

Results

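The IL-6, LIF and oncostatin M axis was followed through 10 genes: the ligands Il6, Lif, Osm and Il11, the receptor chains Il6ra, Il6st, Lifr, Osmr and Il11ra1, and the feedback inhibitor Socs3. The genes were found by symbol, and each of the 10 matched 1 of the 47606 rows in each expression table. All 10 passed the filter on low values in both hosts. The tumours grew under the skin from BBN963, a mouse bladder cancer cell line. Hosts were either C57BL/6 mice (B6 below) or NSG mice, a strain without T, B or NK cells. Entinostat is an inhibitor of class I histone deacetylases. In each host, tumours were taken at baseline, after vehicle (named NonTreated or Non-Treatment in the sample titles) or after entinostat, and all groups carried the same tumour line. B6 hosts were represented by 4 baseline, 6 vehicle and 5 entinostat tumours with RNA values, and NSG hosts by 5 tumours in each group. A sixth B6 entinostat tumour was not analysed here. For B6 hosts the labels state randomization at a tumour volume of 200 mm3, chow with 12 mg/kg entinostat and collection of entinostat tumours at 100 mm3. The collection volume of the other B6 tumours is not stated, so treatment and tumour size cannot be told apart. For NSG hosts neither the dose nor any volume is stated. Ages are not stated, and every tumour comes from 1 cell line.

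Ligands of this family signal through the shared chain gp130, the product of Il6st, which pairs with a second chain that sets the ligand: IL-6 with Il6ra, IL-11 with Il11ra1, LIF with Lifr, and oncostatin M with Osmr or Lifr. Engaged gp130 activates JAK kinases, which phosphorylate STAT3, and STAT3 induces Socs3, whose product binds gp130 and shuts the signal down. IL-6 is known for its secretion by fibroblasts and macrophages in inflamed tissue, oncostatin M is made largely by myeloid cells, and LIF is made by many carcinoma cells.

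Promoter sequence was read from RefSeq (GRCm38, the mm10 build) for 9 of the 10 genes, as 12 windows of 250 bases before a start. Osm had no promoter entry, so it was not searched. Windows were searched on both strands for a STAT site (TTCNNNGAA), an AP-1 site (TGANTCA), a kappa B core (GGGANTTTC), a TATA box (TATAAA) and a GC box (GGGCGG). Il6, Lif and Socs3 are shown, 5′ to 3′ on the strand of the gene. They hold the STAT and kappa B matches in the windows searched and, in Il6 and Lif, the AP-1 matches of the searched ligands that moved. Capitals mark those matches.
Il6, chr5:30012864-30013113, plus strand: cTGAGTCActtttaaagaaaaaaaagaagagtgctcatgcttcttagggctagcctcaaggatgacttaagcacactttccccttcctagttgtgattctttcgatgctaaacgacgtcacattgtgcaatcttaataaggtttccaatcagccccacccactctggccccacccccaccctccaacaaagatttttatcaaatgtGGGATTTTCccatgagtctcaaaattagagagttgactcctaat
Lif, chr11:4257318-4257567, plus strand: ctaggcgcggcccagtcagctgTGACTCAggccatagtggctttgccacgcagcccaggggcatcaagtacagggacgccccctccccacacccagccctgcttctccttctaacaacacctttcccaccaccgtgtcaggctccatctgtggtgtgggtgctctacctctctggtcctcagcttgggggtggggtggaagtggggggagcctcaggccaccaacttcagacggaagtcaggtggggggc
Socs3, chr11:117969367-117969616, minus strand: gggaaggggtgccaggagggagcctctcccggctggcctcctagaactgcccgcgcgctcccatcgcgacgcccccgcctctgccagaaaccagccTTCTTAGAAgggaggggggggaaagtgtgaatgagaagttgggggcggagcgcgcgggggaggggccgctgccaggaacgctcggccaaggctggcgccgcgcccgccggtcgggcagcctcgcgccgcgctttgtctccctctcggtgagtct
The Il6 window held an AP-1 match 249 to 243 bases before the start and a kappa B match 44 to 36 bases before it. The Lif window held an AP-1 match 228 to 222 bases before the start, and a window of Il11 held another, 98 to 92 bases before its own. The Socs3 window held a STAT match 154 to 146 bases before the start. A match is a description of these letters and not a measured site. Over 32851 RefSeq windows of the same length, 6.75% held the AP-1 letters, 7.02% the STAT letters and 0.941% the kappa B letters. GC boxes lay in 7 of the 12 windows, against 32.7% of all windows, and the exact letters TATAAA in 0, against 12.4%. The Il11 window with the AP-1 match holds TATATAA, which this search does not count. Lif and Osm are neighbours on chromosome 11, with 16541 bases between the end of Osm and the start of Lif, and Osmr and Lifr lie 215641 bases apart on chromosome 15.

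Sequencing depth ranged from about 11 M to 51.8 M reads a library (M, mega), with NSG_Entinostat_319 and B6 entinostat 418 the shallowest. Values are normalized counts, and each host's table was normalized on its own, so levels are compared within a host. Tumours are named by the mouse number in their titles, and every test measures the spread among tumours. Markers of the labelled tissue were checked first. In B6 hosts the summed signal of 12 epithelial genes was 173127 to 608795 in vehicle tumours and 1393 to 7290 in entinostat tumours, with 11 of the 12 genes lower. Macrophage genes rose in 10 of 10 cases, with sums of 5770 to 51298 against 167457 to 257063, and fibroblast genes in 9 of 9, with sums of 2492 to 472360 against 1.05e+06 to 1.54e+06. Endothelial genes rose in 7 of 7 cases, T cell genes in 8 of 9, muscle genes in 7 of 7, mast cell genes in 5 of 6, neutrophil genes in 5 of 8 and adipocyte genes in 4 of 6. The endothelial sum of vehicle 402 (20409) was above every entinostat tumour (12271 to 19227). Muscle sums with entinostat ran from 138 in tumour 418 to 441803 in tumour 413, against 23 to 65.2 with vehicle, and baseline 415 held 14175. For every list the values to compare with are 29.9% of all genes tested called higher and 26.2% called lower (5093 and 4460 genes). With quantile scaling these were 4548 and 5305, and with cyclic loess scaling 4643 and 5033. Upk3a, one of the 12 epithelial genes, was at 0 in at least 1 tumour of each B6 group. Upk1b, another of the 12, was at 0 in at least 1 baseline and 1 entinostat tumour. The part of these markers in the results below was not tested. In these bulk samples, a change in the number of cells of a type and a change in RNA per cell cannot be told apart.

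In B6 tumours 9 of the 10 genes passed the test between entinostat and vehicle. Osm, Il6, all 5 receptor chains and Socs3 rose, Lif fell, and Il11 was not called. These calls are from limma with Benjamini-Hochberg adjustment over all 17053 genes tested, at an adjusted p under 0.05, which called 56% of all genes. The median log2 fold change of the 10 genes was 1.45, beside -0.01 for all genes. For 6 genes (Lif, Osm, Il6ra, Il6st, Lifr and Il11ra1) no entinostat tumour overlapped any vehicle tumour, and 35.3% of all genes showed the same separation, 19.5% upward and 15.8% downward. In NSG tumours none of the 10 genes was called, and 0% of the 17752 genes tested were.

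**Figure D1:**
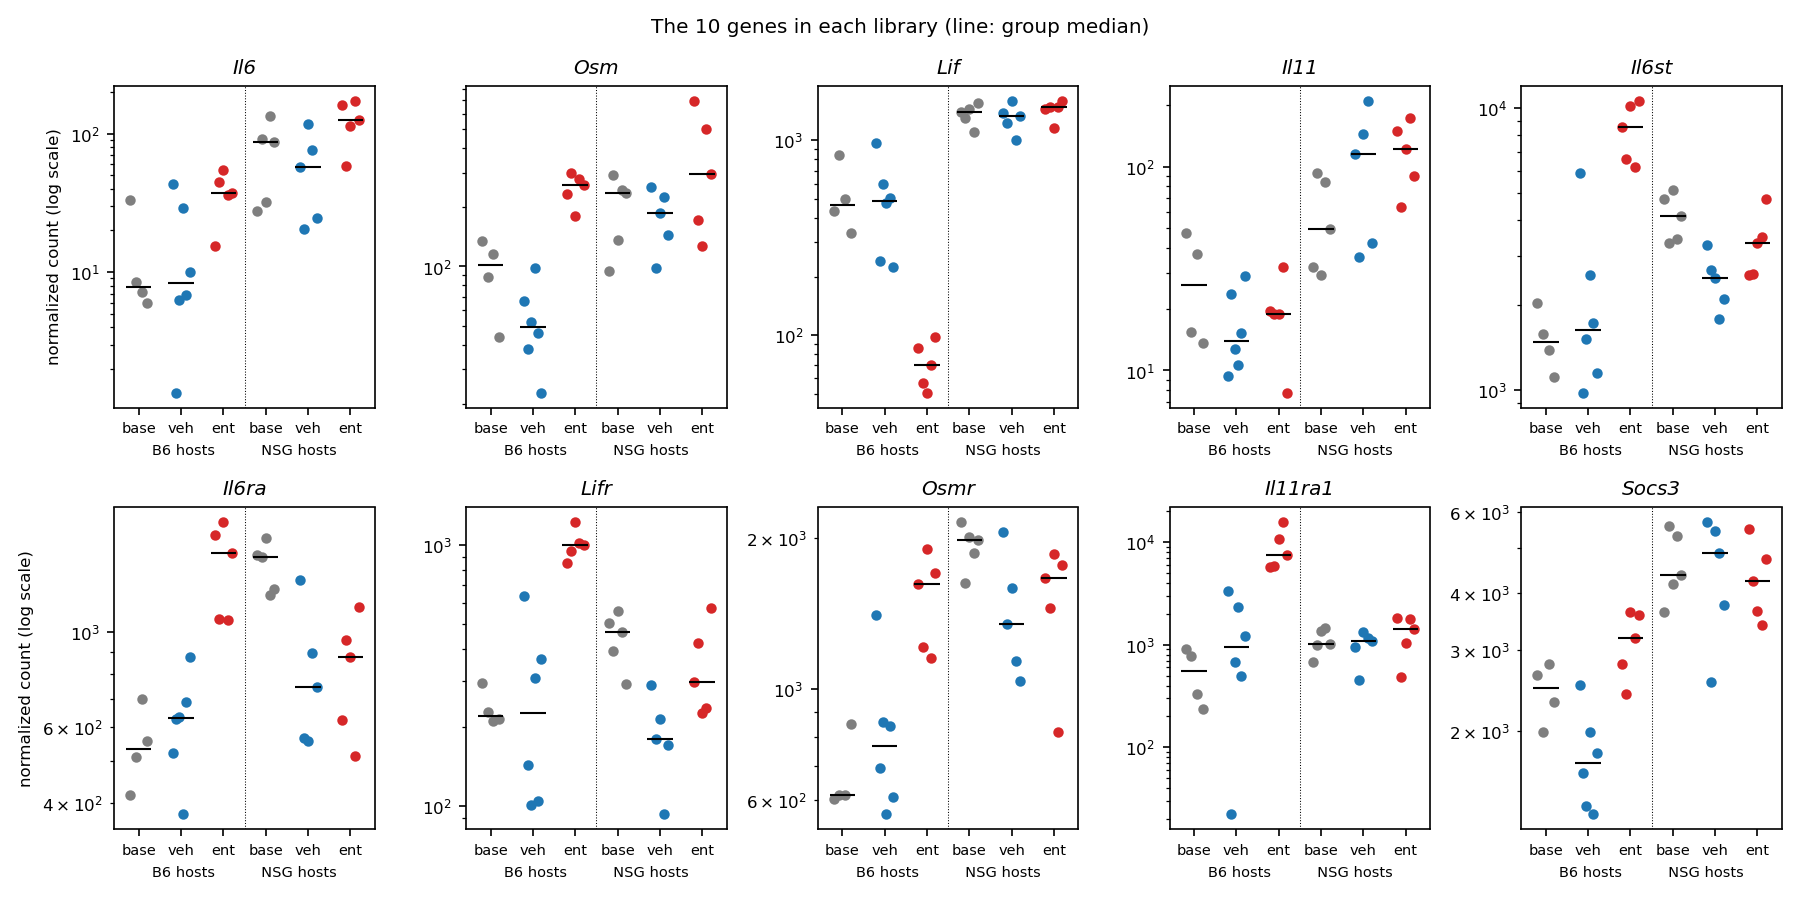
Normalized count on a log scale of each of the 10 genes in every tumour (points), by group, with the group median as a line; base, veh and ent stand for baseline, vehicle and entinostat. In B6 hosts the entinostat points of Lif lie below all vehicle points, and those of Osm, Il6ra, Il6st, Lifr and Il11ra1 lie above them.

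Lif, the ligand of the gp130 and LIFR pair, was the single gene of the axis that fell. Its normalized counts in B6 entinostat tumours 411, 413, 418, 421 and 423 were 85.8, 56.8, 50.5, 70.6 and 98.5. The 6 B6 vehicle tumours ranged from 223 to 972 with a median of 490.5, and the 4 baseline tumours held 433, 840.1, 501 and 333. Every entinostat tumour was therefore below every vehicle and every baseline tumour. The means were 72.4 ± 19.9 (SD, n = 5) and 502 ± 275 (SD, n = 6), which made vehicle 6.93-fold higher. On the log2 scale this was -2.64 (SE 0.37, limma adjusted p = 3.12e-05), with an exact two-sided permutation p of 0.00433, the smallest that 5 against 6 tumours can give. Against baseline the log2 fold change was -2.80 (limma adjusted p = 5.61e-05). Leaving out any 1 B6 library kept both calls. The epithelial sum of the same tumours was lower in all 5 entinostat tumours than in any vehicle tumour, as given above. Among vehicle tumours the order was the other way at both ends. Tumour 402 had the lowest epithelial sum (173127) and the highest Lif (972), and tumour 424 the highest sum (608795) and the lowest Lif (223). A relation between Lif and the epithelial sum was not tested.

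In NSG hosts Lif was at like levels in every group. The 5 entinostat tumours held 1454, 1478, 1154, 1488 and 1599. The 5 vehicle tumours held 1380.2, 1229, 1583, 998 and 1326, and the 5 baseline tumours held 1402, 1295, 1448, 1099.9 and 1554. The groups overlapped, and the log2 fold change between entinostat and vehicle was 0.15 (SE 0.14, limma adjusted p = 0.798). The epithelial sums of these tumours also overlapped, at 217116 to 265899 with entinostat and 185278 to 332833 with vehicle.

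Osm, the oncostatin M gene that lies next to Lif, moved the other way in B6 tumours. It was 234, 298, 181, 279.5 and 261 in the 5 entinostat tumours. Vehicle tumours ranged from 22.7 to 97.8 with a median of 49.2, and baseline tumours held 134, 88.8, 116 and 43.7. All entinostat values were above all vehicle and baseline values. The ratio of means was 4.65, and the log2 fold change was 2.31 (SE 0.37, limma adjusted p = 9.83e-05). Against baseline it was 1.48 (limma adjusted p = 0.00659). Macrophage markers rose in the same tumours, and no macrophage sum of an entinostat tumour overlapped a vehicle sum. The same held for the fibroblast, neutrophil (7598 to 25235 against 1241 to 7025), T cell (2557 to 6001 against 694 to 1644), muscle and adipocyte sums. Among vehicle tumours, 402 had the highest macrophage sum (51298) with Osm at 66.7, and 410 had the highest Osm (97.8) with a macrophage sum of 29550. The part of any cell type in Osm was not tested.

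In NSG tumours Osm was 698, 171, 127, 502 and 295 with entinostat and 253, 98.3, 187, 227 and 145 with vehicle. NSG_Entinostat_306, NSG_Entinostat_319 and NSG_Entinostat_327 lay above every vehicle value, and the other two lay among them. The change of 0.77 on the log2 scale (SE 0.44, limma adjusted p = 0.707) was not called. NSG_Entinostat_319, the shallowest library, also had the highest neutrophil sum of the NSG tumours, at 119579.

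Set beside each other within a tumour, the normalized count of Lif divided by that of Osm was 4.88 to 14.6 in B6 vehicle tumours, 3.23 to 9.46 at baseline and 0.191 to 0.378 with entinostat. In NSG tumours it was 4.40 to 12.5 with vehicle, 4.45 to 14.8 at baseline and 2.08 to 9.09 with entinostat. This ratio depends on the length of both transcripts and is used only to follow the pair across tumours, with no test.

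**Figure D2:**
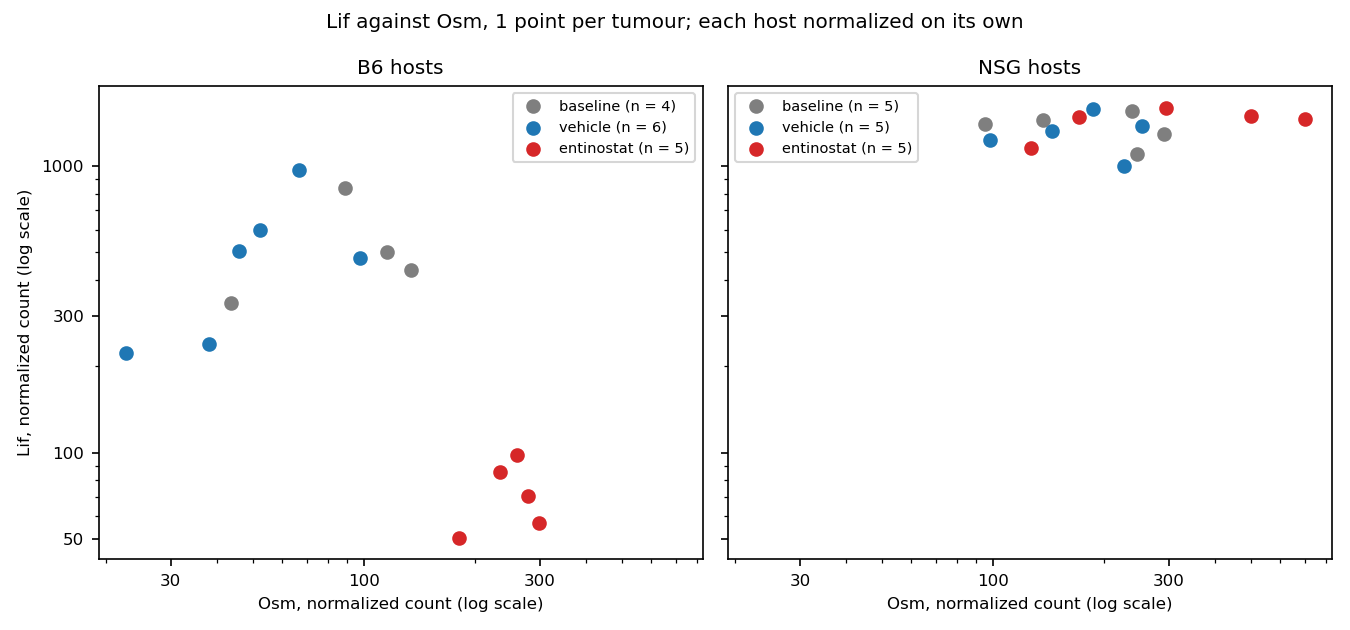
Lif against Osm as normalized counts on log axes, 1 point per tumour, with B6 hosts on the left and NSG hosts on the right. B6 entinostat tumours sit apart at low Lif and high Osm (ratio 0.191 to 0.378), while NSG entinostat tumours lie among or to the right of the other NSG tumours.

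Il6, the founding ligand of the family, was scarce in B6 tumours, at 2 to 69 reads a library, and 22 to 207 in NSG tumours. Its normalized counts in B6 entinostat tumours were 15.5, 44.9, 54.6, 36.3 and 37.4. Vehicle tumours held from 1.34 to 43.4 with a median of 8.42, and baseline tumours held 33.3, 8.54, 7.17 and 6.04. The groups overlapped: entinostat 411, 421 and 423 lay inside the vehicle range, and vehicle 402 was above 3 entinostat tumours. The log2 fold change against vehicle was 1.69 (SE 0.69, limma adjusted p = 0.0479, exact permutation p = 0.039) and that against baseline was 1.62 (limma adjusted p = 0.0835). The call against vehicle was marginal. It ended on leaving out any 1 of 11 of the 15 B6 libraries (all but vehicle 402 and 410, entinostat 411 and baseline 415), where the log2 fold change was 1.23 to 1.69 and the adjusted p at most 0.102. It also ended with a pseudocount of 0.5 (limma adjusted p = 0.0502), with no filter on low values (0.0635), with quantile scaling (1.14, 0.093), with cyclic loess scaling (0.79, 0.276) and with the 2 groups alone (0.0592). Baseline 416, 419 and 426 are not in this comparison, and without any 1 of them the log2 fold change stayed at 1.69.

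Il6 in NSG tumours was 162, 58.9, 113, 173 and 126 with entinostat and 57.2, 20.4, 117, 75.6 and 24.6 with vehicle. Of the entinostat tumours, 3 were above every vehicle tumour. The log2 fold change was 1.28 (SE 0.52, limma adjusted p = 0.682, exact permutation p = 0.0556). The difference between hosts was 0.40 (SE 0.89, limma adjusted p = 0.748), so the 2 responses of Il6 were not distinguished from each other at this spread.

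Il11, a ligand known for its part in fibrosis, was also scarce, at 6 to 50 reads in B6 libraries. B6 entinostat tumours held 19.5, 19.0, 19.0, 32.1 and 7.75 and vehicle tumours from 9.4 to 29.2 with a median of 14.0. These values overlapped throughout. Its fold change on the log2 scale was 0.19 (SE 0.45, limma adjusted p = 0.736), and its sign turned with quantile scaling (-0.30) and cyclic loess scaling (-0.64). In NSG tumours it was 0.34 (SE 0.49, limma adjusted p = 0.864).

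Il6st encodes gp130, the chain that all these ligands share. Its normalized counts in B6 entinostat tumours were 8587, 6585, 10187, 6175 and 10626. Vehicle tumours ranged from 979 to 5875 with a median of 1631, and baseline tumours held 2041, 1579.7, 1389 and 1116. The ratio of means was 3.66, and the log2 fold change was 2.12 (SE 0.37, limma adjusted p = 0.000212). Vehicle tumour 402 set the top of the vehicle range, just under the lowest entinostat tumour. The same tumour had the highest fibroblast (472360), macrophage (51298) and endothelial (20409) sums and the lowest epithelial sum (173127) of the vehicle tumours. Without tumour 402 the log2 fold change of Il6st was 2.45, that of Lifr 2.49 and that of Il11ra1 4.17.

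Lifr, the signalling partner of gp130 for LIF, was 849.8, 944, 1224, 1014 and 998 in B6 entinostat tumours. Vehicle tumours ranged from 101 to 638 with a median of 227, with tumour 402 again highest, and baseline tumours held 296, 229, 212 and 215. The log2 fold change was 2.18 (SE 0.40, limma adjusted p = 0.000347), and the entinostat and vehicle groups did not overlap. In B6 entinostat tumours the ligand Lif was thus lower and its receptor chain Lifr higher than in vehicle tumours.

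Il6ra, which binds IL-6 and can be shed as a soluble receptor, was 1686, 1076, 1804, 1065 and 1526 in B6 entinostat tumours and from 376 to 875 with a median of 631 in vehicle tumours. Entinostat tumours were higher by 1.22 on the log2 scale (SE 0.22, limma adjusted p = 0.000299). Tumour 402 was not the highest vehicle tumour here; tumour 424 was.

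Osmr, the chain that makes the second oncostatin M receptor, was 1620.1, 1212, 1898, 1151 and 1703 with entinostat and from 561 to 1399.8 with a median of 767 with vehicle. Its groups overlapped, because vehicle 402 lay above entinostat 413 and 421. Its change was 0.92 on the log2 scale (SE 0.22, limma adjusted p = 0.00266), the smallest of the 5 receptor chains. Against baseline the 5 chains had log2 fold changes of 1.17 to 4.12, each of them called, and 54.4% of all genes were called there, 29.1% as higher and 25.3% as lower. Comparisons with vehicle and with baseline share the entinostat tumours and are not independent of each other.

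Il11ra1, the chain that binds IL-11, had the largest fold change of the 10 genes in B6 tumours. It was 5722, 5834, 10740.2, 15617 and 7422 with entinostat. Vehicle tumours ranged from 22.2 to 3343 with a median of 950.3, and baseline tumours held 898, 769.9, 328 and 236. Vehicle values spread widely, with tumour 405 lowest and tumour 402 highest. Tumour 405 also had the lowest fibroblast (2492), macrophage (5770), endothelial (764), T cell (694) and mast cell (284) sums of the vehicle tumours. Tumour 402 had the highest of each. Tumour 424 had a lower fibroblast sum (15018) than tumour 408 (38924) and higher Il11ra1 (1220 against 681). The part of any cell type in Il11ra1 was not tested. Entinostat against vehicle gave 3.69 on the log2 scale (SE 0.95, limma adjusted p = 0.00419). It was 2.73 without tumour 405, and the call held without any 1 library.

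Mouse Il11ra1 has near-identical copies on chromosome 4, Il11ra2 and Gm13305, and how the authors' counting shared reads among them is not given in the sources used here. The copies held 0 to 2.84% of the summed signal of the 3 genes in the 15 B6 libraries and 9.06 to 27.9% in the 15 NSG libraries. No B6 library overlapped an NSG library in this share. Summing the 3 genes, an alternative chosen after seeing the data, gave a log2 fold change of 3.68 in B6 tumours (limma adjusted p = 0.00415) and 0.38 in NSG tumours (0.805). With at most 2.84% of the B6 sum in the copies, adding them could hardly move the B6 value. The sum does not show how reads were shared.

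**Figure D3:**
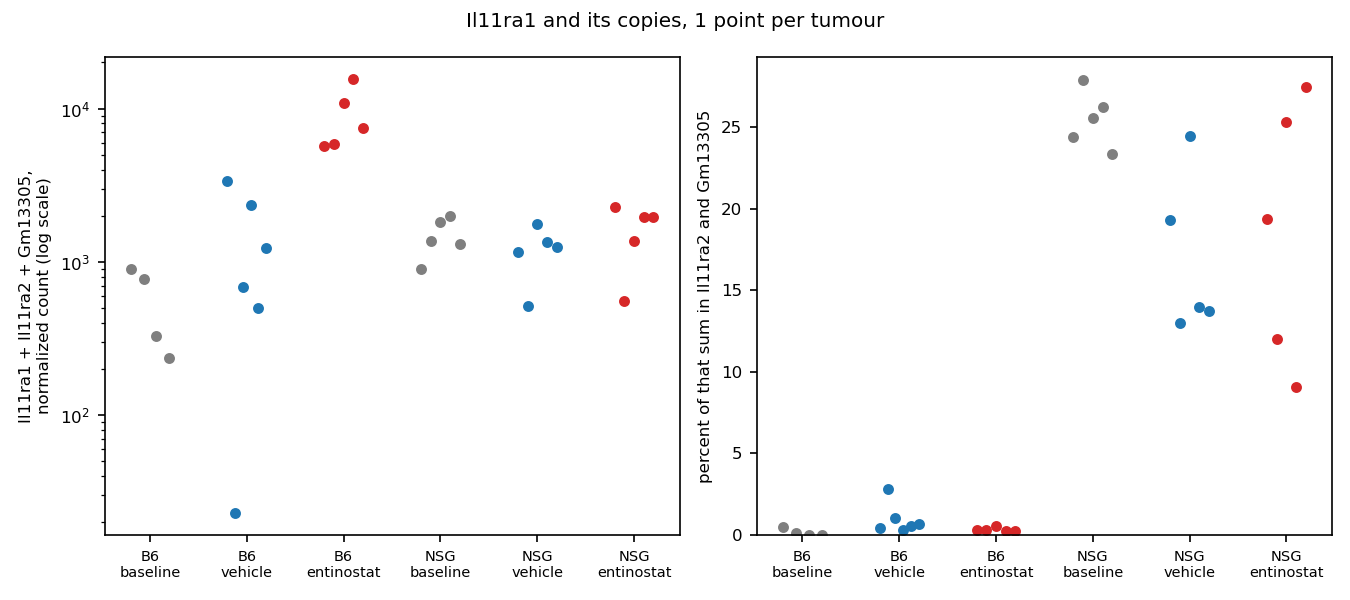
Summed normalized count of Il11ra1, Il11ra2 and Gm13305 on a log scale (left) and the percent of that sum in both copies (right), 1 point per tumour by group. B6 tumours hold at most 2.84% in the copies and NSG tumours 9.06 to 27.9%, and among B6 tumours the summed level is highest with entinostat.

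Socs3, the feedback inhibitor induced by STAT3, was 2791, 2407, 3639.8, 3183 and 3587 in B6 entinostat tumours. Vehicle tumours ranged from 1312 to 2515 with a median of 1703, and baseline tumours held 2646, 1985, 2791 and 2314. Vehicle tumour 402 lay above entinostat 413, and the other vehicle tumours were below all entinostat tumours. The log2 fold change against vehicle was 0.84 (SE 0.18, limma adjusted p = 0.00104). Against baseline it was 0.35 and not called (limma adjusted p = 0.142). Baseline tumours overlapped both other groups.

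The responses of the hosts were compared as the B6 log2 fold change minus the NSG one, both entinostat against vehicle, in 1 fit of all 30 libraries. Of the 10 genes, 8 were called, beside 41.3% of all 18470 genes tested (23.5% higher and 17.8% lower). Lif had a difference of -2.78 (SE 0.40, limma adjusted p = 4.22e-06). Higher responses in B6 tumours were found for Il11ra1 (3.35), Il6st (1.69), Osm (1.54), Lifr (1.30), Il6ra (1.19), Socs3 (0.86) and Osmr (0.85). Differences of Lif, Il11ra1, Il6st and Il6ra kept their call under every alternative, while those of Osm, Lifr, Osmr and Socs3 did not, as given in the closing section. Il6 and Il11 were not called. The hosts differ also in what was stated about dose and volume, so host and these conditions cannot be told apart.

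**Figure D4:**
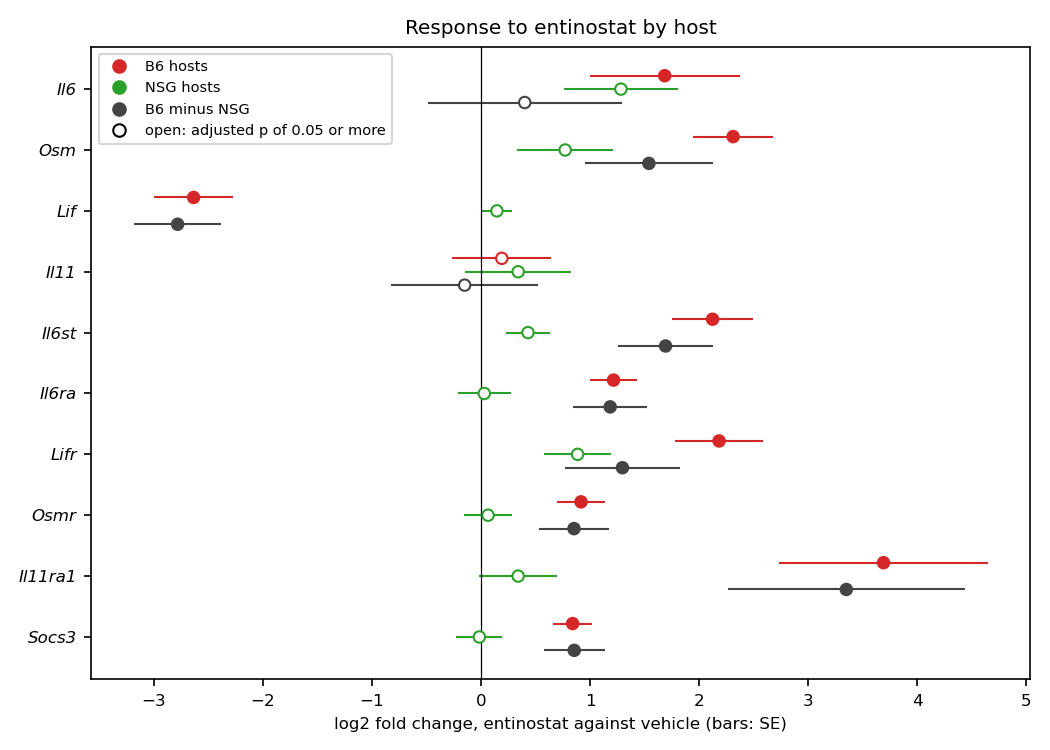
Log2 fold change of entinostat against vehicle in B6 hosts, in NSG hosts, and the B6 value minus the NSG value, with SE as bars; filled points passed limma's adjusted p of 0.05. The B6 values of Lif (-2.64) and Il11ra1 (3.69) lie farthest from 0, and every NSG point is open.

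In NSG tumours the comparison of entinostat with vehicle gave limma log2 fold changes from -0.01 (Socs3) to 1.28 (Il6) for the 10 genes, with a median of 0.34 beside -0.03 for all genes. None was called. At an unadjusted p under 0.05 there were 3 of 10 (Il6, Il6st and Lifr), and 1287 of 17752 genes overall. By the exact permutation test 1 of 10, Lifr, had a p under 0.05. That test was run on the 10 genes only, so it has no share of all genes beside it. Lifr was 299, 422, 228, 238 and 572 with entinostat and 290.3, 181, 215, 92.8 and 171 with vehicle, which is 0.89 on the log2 scale (SE 0.31, limma adjusted p = 0.682, exact permutation p = 0.0317). Il6st was 2559, 2586, 3318, 3482 and 4761 and 3259, 2659, 2498, 1786 and 2112, a log2 fold change of 0.43. No gene of the 10 separated the groups fully, and 0.783% of all genes did.

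Of the 5 receptor chains, 3 differed in NSG tumours between vehicle and baseline. Lifr fell by 1.27 (limma adjusted p = 0.0226), Il6ra fell by 0.87 (0.0335) and Il6st fell by 0.77 (0.0272) on the log2 scale. Osmr (-0.47, limma adjusted p = 0.15) and Il11ra1 (-0.18, 0.756) were not called. Of all genes, 13% were called, 5.5% as lower and 7.53% as higher. Il6st was 4775, 3318, 5143, 3431 and 4149 at baseline, above every vehicle tumour. Lifr at baseline was 503, 393, 557, 465 and 294, also above every vehicle tumour, and Il6ra was 1512, 1496, 1660.2, 1219 and 1259. Vehicle values of Il6ra were 1323, 567, 556, 894 and 744, with NSG_Non-Treatment_302 inside the baseline range. Fibroblast markers fell in 5 of 9 cases in the same comparison, endothelial in 5 of 7, mast cell in 2 of 6 and macrophage in 3 of 10. Neutrophil markers rose in 4 of 7 cases and epithelial in 1 of 12. Of the muscle, adipocyte and T cell markers tested, 0 were called. Muscle sums ran from 3314 to 84337 (NSG_Baseline_305) at baseline and from 552 to 66125 (NSG_Non-Treatment_326) with vehicle. The part of these markers in the result was not tested. The calls depended on single libraries, and the differences stayed negative: none of the 3 was called without NSG_Baseline_303, NSG_Baseline_305, NSG_Non-Treatment_323 or NSG_Non-Treatment_326, 1 was called without NSG_Baseline_320, and 2 were called without NSG_Baseline_304 or NSG_Non-Treatment_311. With 1 library left out the log2 fold change was -1.45 to -1.04 for Lifr, -1.07 to -0.76 for Il6ra and -0.87 to -0.66 for Il6st, and the number of all genes called ranged from 0 (without NSG_Baseline_303) to 3707 (without NSG_Entinostat_319), against 2312. Among the numbers that the NSG sample descriptions carry, 4 occur on both a baseline and a vehicle library, and the labels do not say what these numbers mark. Against baseline, entinostat gave 0 calls among the 10 genes in NSG tumours (0.406% of all genes), with 2 at an unadjusted p under 0.05 and 2 by the exact permutation test (Il11 and Il6ra both times). Of all genes, 25.4% had an unadjusted limma p under 0.05 there, and the exact test was run on the 10 genes only.

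In B6 tumours vehicle and baseline gave 0 calls among the 10 genes, as among all genes (0%), by limma. At an unadjusted p under 0.05 there were 2 of 10, Osm (-0.84) and Socs3 (-0.49), and 749 of 17053 genes overall. By the exact permutation test, run on the 10 genes only, just Socs3 had a p under 0.05 (0.0476). For Socs3, 4 of the 6 vehicle tumours lay under the lowest baseline tumour.

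Other genes of the pathway were counted in B6 tumours over 6 lists. Of 8 tested members of the rest of the family, 4 rose: Ebi3 (3.42), a subunit of IL-27 and IL-35, its partner Il27 (2.01), the receptor Il27ra (2.72) and Cntfr (2.88), the receptor chain for ciliary neurotrophic factor. Ebi3 was from 35.4 to 96.4 in vehicle and from 459 to 975 in entinostat tumours. Il27 and Cntfr were picked for naming after their values were seen.

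Among 10 kinases, STATs and adaptors, 5 rose and 1 fell. Jak1, the main kinase bound to gp130, rose by a log2 fold change of 0.99, and Grb2, an adaptor to the MAP kinase pathway, by 1.03. Stat3 itself, the chief transducer of the axis, was from 4271 to 6345 in vehicle and from 4387 to 6007 in entinostat tumours. It differed by -0.08 on the log2 scale (SE 0.14, limma adjusted p = 0.654). These are transcript levels, and phosphorylation was not measured.

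Of 12 other inhibitors of the pathway, 3 rose and 4 fell. Ptpn6, the phosphatase SHP-1 of blood cells, rose by 2.01 and Ptpn1, a phosphatase acting on JAK kinases, by 0.91. Socs5, a relative of Socs3, fell by 0.79, and Socs2, which restrains growth hormone signalling, was at 0.08 (limma adjusted p = 0.819).

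Of 16 genes known to respond to STAT3, 8 rose and 5 fell. Mcl1, a survival factor of the BCL2 family, rose by 1.34 (from 5815 to 8174 with vehicle and from 13602 to 19953 with entinostat). Myc, the growth regulator, fell by 2.45 (from 1864 to 5288 with vehicle and from 377 to 687 with entinostat). Bcl3, a coregulator of NF-kappa B, was at -0.31 (limma adjusted p = 0.314). The median of the list was 0.57.

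Of 10 tested acute phase genes, 6 rose and 0 fell, and the median log2 fold change was 2.86. Saa3, a serum amyloid made outside the liver, had a log2 fold change of 7.07 (from 6.84 to 3957 with vehicle and from 14183 to 118274 with entinostat). Orm1, orosomucoid, rose by 5.53, and Serpina3n, a protease inhibitor, by 4.44. Saa1 was at 2.15 and not called (limma adjusted p = 0.0711). Saa3 also rose in NSG tumours between baseline and vehicle, by 1.72.

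The last list held 8 genes that control Il6 mRNA or shed receptors. Adam10, a sheddase, fell by 0.73 and Nfkb1, which encodes an NF-kappa B subunit, by 0.77, and 6 were not called. Nfkbiz, a cofactor for Il6 transcription, was at -0.03. In NSG tumours 0 genes of any of the 6 lists were called between entinostat and vehicle by limma, as for all genes.

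**Figure D5:**
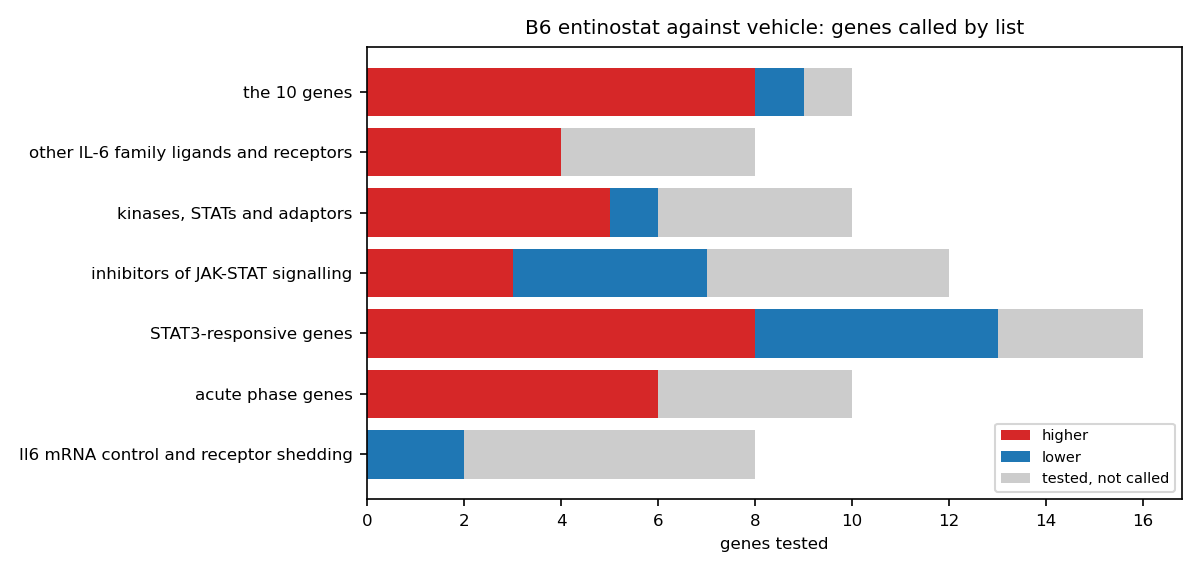
Number of genes tested in each list, split into those called higher, called lower and not called in B6 entinostat against vehicle tumours. The 10 genes of the axis show 8 higher and 1 lower, the acute phase list 6 higher and 0 lower, and the inhibitors 3 higher and 4 lower, beside 29.9% and 26.2% of all genes.

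The genes whose profiles were most like 4 of the 10 were sought over all 30 libraries, among 14606 genes, by the root mean square difference in log2 value after centring each gene within each host. For Lif the nearest were Ska3 (0.43), a kinetochore protein, Kif23 (0.43), a kinesin of cytokinesis, and Fam64a (0.46), beside a median of 1.11 over all candidates. For Osm they were Nfe2 (0.51), a transcription factor of blood cells, Ankrd33b (0.52) and Hexim2 (0.56), beside a median of 1.12. Tmem127 (0.23), Nod1 (0.25), a sensor of bacterial peptidoglycan, and Pofut1 (0.26) lay nearest to Osmr, with a median of 0.76. Nearest to Socs3 were Il15ra (0.25), a receptor for IL-15, Cst7 (0.27) and Tnfrsf1a (0.28), a receptor for TNF, with a median of 0.68. A flat profile, one that did not vary within a host, would lie at 0.997 from Lif, 0.965 from Osm, 0.502 from Osmr and 0.387 from Socs3, so the likeness to Socs3 and Osmr is over a small range. These values are descriptions, and the points share the libraries and their normalization.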

How the data were processed

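RNA was measured in bulk tumours. The deposited values are signal per gene: DESeq2-normalized gene counts, in separate tables for B6 and NSG hosts that the authors normalized separately; the submitters' processing notes name STAR, DESeq2 and mm10, without versions. Libraries were stranded mRNA libraries, per the labels' protocols. Whole reads could not be recovered, so count models were not run, and the read numbers given are estimates from the value of 1 read in each library (0.611 to 3.18 units).

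Values were taken as log2(value + 1) and fitted with limma 3.58.1 (R 4.3.3), with trend and robust empirical Bayes, with the 3 groups of each host fitted together. Tests covered genes that reached 10 in 4 or more B6 or 5 or more NSG libraries, and in either host for the host difference. P-values were Benjamini-Hochberg adjusted over all genes of a comparison and called under 0.05. A log2 fold change on this scale understates changes of low genes. Exact permutation tests were two-sided, not adjusted and run on the 10 genes only (scipy 1.17.1). Summaries and figures used Python 3.11.15, pandas 2.3.3, numpy 2.4.6 and matplotlib 3.10.9. Alternatives were pseudocounts of 0.5 and 5, no filter, a mean of at least 50, quantile and cyclic loess scaling, no trend or robust weights, the 2 groups alone, no baseline libraries, and each library left out. Members and gene lists were chosen with earlier results of these data known. Genes named from a list were the 2 with the smallest p between entinostat and vehicle in each host. T cell receptor and exome samples, and the RNA library of B6 entinostat tumour 403, were not analysed here. Some genes of the pathway lists enter the counts but are not reported here by name.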

Additional observations from a re-analysis of the deposited data

Results flagged for a closer look

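In 60 checks of a gene in a group, 1 library stood apart from the rest by Dixon's criterion, and chance gives about 5% of groups. It was Osmr in B6 baseline tumours, where tumour 426 held 851.5 normalized counts and the other three 602.5 to 613.9. B6 baseline tumour 426 enters the comparison of entinostat with baseline, where Osmr stayed called without it.

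For 8 genes the response to entinostat differed between hosts by the test of the difference itself. The B6 minus NSG difference in log2 fold change was -2.78 for Lif, 3.35 for Il11ra1, 1.69 for Il6st, 1.54 for Osm, 1.30 for Lifr, 1.19 for Il6ra, 0.86 for Socs3 and 0.85 for Osmr. Lif was lower in 5 of 5 B6 entinostat tumours than in any vehicle tumour, and the NSG groups overlapped. The call for Lifr (limma adjusted p = 0.0492) ended on leaving out any 1 of 24 of the 30 libraries, all but B6 vehicle 402, 410 and 424, NSG_Non-Treatment_323, NSG_Entinostat_312 and NSG_Entinostat_327, where the difference was 1.07 to 1.36. The baseline libraries are among those 24 but not in this comparison. Without any 1 of them the difference stayed at 1.30, and only the estimate of the spread and the adjustment could move. The call for Osm ended without any 1 of 10 libraries (B6 vehicle 405 and 424, B6 entinostat 413, 421 and 423, NSG_Non-Treatment_302, NSG_Non-Treatment_311, NSG_Non-Treatment_323, NSG_Entinostat_312 and NSG_Entinostat_315), where it was 1.24 to 1.52. The call for Osmr ended without any 1 of 9 (B6 vehicle 405, 410 and 424, B6 entinostat 411, 418 and 423, NSG_Non-Treatment_302, NSG_Non-Treatment_311 and NSG_Entinostat_319), where it was 0.65 to 0.82. Those for Lif, Il11ra1, Il6st, Il6ra and Socs3 held without any 1 library.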

How the results depend on the processing

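Of 1413 alternative values for the 10 genes, 1290 kept their direction and side of the threshold, 87 lost a call, 9 passed to a p under 0.05 and 27 turned sign. Some of these 9 were exact permutation p-values, which are not adjusted and make no call. They were Il6 in B6 entinostat against baseline, Lifr in NSG entinostat against vehicle, and Il11 and Il6ra in NSG entinostat against baseline. Vehicle against baseline entered only for genes called there. Leaving out a library of a group not compared cannot change a direction. Quantile scaling moved the median of all genes from -0.01 to -0.16 in B6 entinostat against vehicle and from 0.06 to -0.12 for the host difference. In B6 tumours the calls of Lif, Osm, Il6ra, Il6st, Lifr, Osmr, Il11ra1 and Socs3 against vehicle held under every alternative, and that of Il6 did not. Signs turned with quantile and cyclic loess scaling for Il11 in B6 entinostat against vehicle (-0.30 and -0.64), Socs3 in NSG (0.013 and 0.0061) and the host difference of Il6 (-0.16 and -0.090); the cause was not tested. Leaving out 1 library gave -0.012 to 0.47 for Il11 in B6 tumours, -0.10 to 0.22 for Il6ra, -0.041 to 0.27 for Osmr and -0.20 to 0.088 for Socs3 in NSG entinostat against vehicle, and host differences of -0.46 to 0.17 for Il11 and -0.050 to 0.80 for Il6. Of the 10 genes, 5 were called for the host difference with no filter and 4 with quantile scaling, against 8, and 5 to 8 with 1 library left out. Beside these, no filter called 4394 genes higher and 3030 lower among all 30826. Quantile scaling called 3581 higher and 3919 lower among all 18470, and leaving out 1 library called 7033 to 8087 of them. The calls lost with no filter were Osm (0.0562), Lifr (0.0739) and Osmr (0.0525), and with quantile scaling these and Socs3 (0.066), by limma adjusted p. Cyclic loess scaling ended those of Osm (0.0926) and Lifr (0.0835), no trend or robust weights that of Lifr (0.054), and no baseline libraries those of Lifr (0.0913) and Osmr (0.0681). NSG entinostat against baseline gave 1 of the 10 with the 2 groups alone (Il6ra), and 0 to 1 with 1 library left out, and NSG vehicle against baseline 0 to 3. Of all genes, NSG entinostat against baseline called 72, and 161 with a pseudocount of 5, with quantile scaling 192 higher and 124 lower, 44 without trend or robust weights, 591 with the 2 groups alone and 0 to 938 with 1 library left out. NSG vehicle against baseline called 2312, 1409 with no filter (fewer calls over more genes) and 0 to 3707 with 1 left out. B6 vehicle against baseline called 0, 1 with quantile scaling and 0 to 2 with 1 left out, and NSG entinostat against vehicle 0 to 1. No paired analysis was possible because the groups share no replicate numbers. Il6 and Il11 rest on few reads, which limits their precision.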
